A study of Schizosaccharomyces pombe with 26 samples.

Results

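The Tf2 elements are the full-length retrotransposons of *Schizosaccharomyces pombe*, and this account follows histone H3 and the Mediator subunit Med15 over their copies Tf2-1, Tf2-2, Tf2-3, Tf2-4, Tf2-5, Tf2-6, Tf2-7, Tf2-8 and Tf2-11. Features were taken where the name printed in the array files, without its IGR prefix, was one of these 9 names or the systematic identifier of that copy. This gave 10 features of the 9845 on the arrays, 1 of 4960 intergenic (IGR) features and 9 of 4885 open reading frame (ORF) features. They cover 8 of the 9 copies, because no feature carries the name or identifier of Tf2-4. On the ORF arrays Tf2-8 is present both under its name and, as a separate feature, under its identifier SPAC19D5.09c.

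The study used chromatin immunoprecipitation (ChIP) on spotted 2-colour arrays. H3 was measured in cells without *hrp1* (Δhrp1, 3 samples on each array type), in cells without *med15* (Δmed15, 2 samples on each) and in wildtype (2 samples on each; strain 711 where the labels give a number), and Med15 was measured through a myc tag in the strain Med15-myc (3 samples on each). The cultures grew in rich medium, YES where the labels name it, to mid-log phase, and no untagged strain is among the labels. In each hybridisation the ChIP DNA carried one dye and input DNA, the same chromatin before precipitation, the other. The IGR and ORF positions are complementary parts of a layout of 22176 positions, so an IGR and an ORF sample with the same strain and number may be a single hybridisation, and the labels do not say that replicates came from separate cultures.

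Tf2 elements belong to the long terminal repeat (LTR) retrotransposons. They carry a single open reading frame for Gag, protease, reverse transcriptase and integrase, and they move through an RNA copy. In fission yeast their transcription is held down by the HIRA histone chaperone, by CENP-B homologues that bring in histone deacetylases, and by other chromatin factors, and it is induced in low oxygen by the transcription factor Sre1. Hrp1 is a CHD-type chromatin remodelling ATPase, and Med15 belongs to the tail of Mediator, the complex between transcription factors and RNA polymerase II.

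The sequences decide what these features can tell apart, so they are given first. In the RefSeq annotation of assembly ASM294v3, 13 Tf2 copies and 238 LTRs are annotated. The coding sequence of each of the 9 copies is 4002 bases long. Tf2-1, Tf2-2 and Tf2-4 are identical, as are Tf2-3, Tf2-5 and Tf2-6, and as are Tf2-7 and Tf2-8, while Tf2-11 stands alone, which leaves 4 distinct coding sequences. The most distant of these differ at 16 bases, an identity of 99.6%. A window of 50 bases occurs, at the median, in all 13 annotated copies. Among the 9 copies followed here, only Tf2-11 holds such windows that no other annotated copy has, 9.06% of its windows.

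Substitutions are counted from 1 at the first base of the coding sequence, with the base of Tf2-1 first. Tf2-3 has T153A and T617C. Tf2-7 has these 2 and C1619T, C1667T, A1677G, G1699A, G1767A, C1812T, T2085G and G2130A. Tf2-11 has T617C together with A340C, A447G, A540G, C644T, T649C, G697A, G820A and G2655A, and it shares with Tf2-7 the changes C1619T, C1667T, A1677G, G1699A, G1767A, C1812T and G2130A. Coding bases 607 to 707 hold 4 of the variable positions. They lie at I:1466453-1466553 on the plus strand in Tf2-1, at I:2930499-2930599 on the minus strand in Tf2-3, at I:5194439-5194539 on the minus strand in Tf2-7 and at II:4415263-4415363 on the plus strand in Tf2-11. Each is written 5′ to 3′ along the coding strand, with capitals at the bases that differ from Tf2-1, and in Tf2-1 at the bases that differ in any other copy shown.
Tf2-1: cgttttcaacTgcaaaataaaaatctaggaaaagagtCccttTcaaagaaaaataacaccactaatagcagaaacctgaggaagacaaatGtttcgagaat
Tf2-3: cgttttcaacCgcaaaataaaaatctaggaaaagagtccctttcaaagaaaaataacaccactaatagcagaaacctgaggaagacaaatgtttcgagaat
Tf2-7: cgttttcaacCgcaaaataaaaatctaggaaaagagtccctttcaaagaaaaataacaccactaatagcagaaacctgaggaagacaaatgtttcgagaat
Tf2-11: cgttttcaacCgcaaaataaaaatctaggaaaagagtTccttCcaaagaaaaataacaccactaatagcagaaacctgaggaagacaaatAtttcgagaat
In this window Tf2-3 and Tf2-7 share the same single change, and Tf2-11 has 3 more. The other stretch shown, coding bases 1609 to 1709, separates Tf2-7 and Tf2-11 from the rest. It lies at I:1467455-1467555 (plus) in Tf2-1, I:2929497-2929597 (minus) in Tf2-3, I:5193437-5193537 (minus) in Tf2-7 and II:4416265-4416365 (plus) in Tf2-11.
Tf2-1: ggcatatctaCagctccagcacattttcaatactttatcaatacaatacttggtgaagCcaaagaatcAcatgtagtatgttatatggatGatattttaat
Tf2-3: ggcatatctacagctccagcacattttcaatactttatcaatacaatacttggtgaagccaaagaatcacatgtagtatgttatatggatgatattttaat
Tf2-7: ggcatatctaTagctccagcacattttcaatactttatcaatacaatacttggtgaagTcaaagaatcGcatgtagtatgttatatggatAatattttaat
Tf2-11: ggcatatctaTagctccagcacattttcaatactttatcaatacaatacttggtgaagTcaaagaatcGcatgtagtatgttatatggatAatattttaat
Here Tf2-3 equals Tf2-1, and Tf2-7 equals Tf2-11. Stretches this alike cannot be told apart by hybridisation of spotted DNA, so a reading at any Tf2 feature may take in DNA from every copy, and the features are treated as one family. The files do not say which bases were spotted for each feature.

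**Figure D1:**
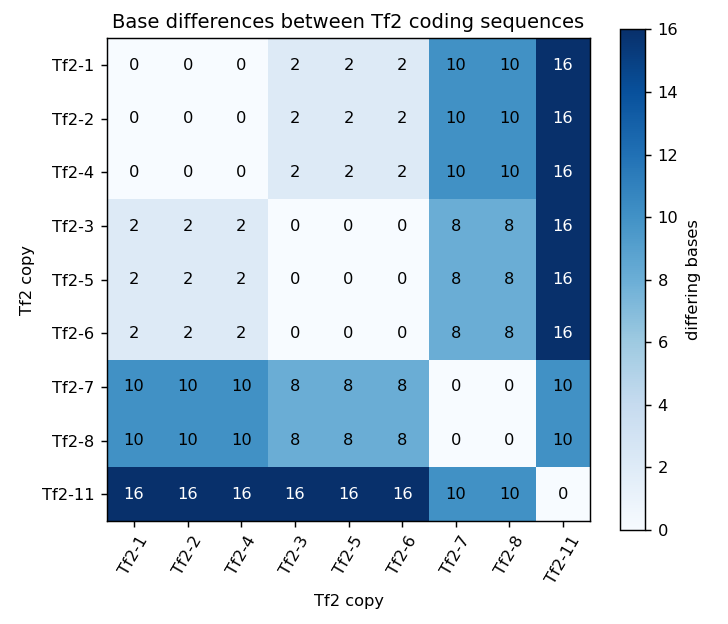
Number of differing bases between the coding sequences of each pair of the 9 Tf2 copies in assembly ASM294v3, copies on both axes. Blocks of 0 mark the identical groups, and Tf2-11 differs from the first 6 copies at 16 bases each.

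The copies are spread over chromosomes I and II. The coding sequences of Tf2-1 (I:1465847-1469848), Tf2-6 (I:4022492-4026493) and Tf2-11 (II:4414657-4418658) lie on the plus strand. Those of Tf2-2 (I:1564216-1568217), Tf2-3 (I:2927204-2931205), Tf2-4 (I:3361547-3365548), Tf2-5 (I:3996423-4000424), Tf2-7 (I:5191144-5195145) and Tf2-8 (I:5195711-5199712) lie on the minus strand, Tf2-7 and Tf2-8 next to each other. The coordinates are those of the annotation, since the array files name features and no build. On which side of Tf2-1 the IGR feature lies is not stated, and whether it holds LTR sequence is unknown.

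Across the arrays with scanner files, the median ChIP intensity was 612 to 12158 scanner units and the median input 964 to 15413. Local backgrounds were 456 to 6526 units in Cy5 and 0 to 358 in Cy3, so background and dye move together. Duplicate spots of the ChIP channel correlated with r from 0.85 to 0.98. The *hrp1* ORF feature read −5.23, −5.99 and −4.53 in Δhrp1, against 1.49 and 1.41 in wildtype, and the *med15* ORF feature read −4.75 and −4.02 in Δmed15, against −1.78 and −1.44 in wildtype (log2 H3 signal less the array median). Of 144 spot readings at the Tf2 ORF features, 6 were saturated and 1 was flagged in the scanner files. No feature lay at or below background, and duplicate spots differed by 0.10 log2 at the median. The Tf2-1 ORF feature was dim on some arrays. Its ChIP intensity was 3763 and 2639 units in Δmed15, against array medians of 8410 and 5729.5. In Δhrp1 it was 2042, 10573 and 6737.5, against array medians of 3718, 9442.5 and 6358.5. The saturated readings were at Tf2-5 in Δhrp1 replicates 1 and 2, and at SPAC19D5.09c in Δhrp1 replicate 2 and Med15-myc replicate 1. The number of arrays, 2 or 3 per strain, limits the precision.

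H3 relative to input could be measured in the deletion strains only, where both channels were at hand. Over the 9 Tf2 ORF features the median log2 ratio of ChIP over input, less the array median, was 0.40, 0.57 and 0.01 in the 3 Δhrp1 samples (mean 0.32 ± 0.29, SD, n = 3). In Δmed15 it was 0.31 and −0.36 (mean −0.03 ± 0.48, SD, n = 2). In these values the Tf2 family lay at or somewhat above the array median in Δhrp1, and on either side of it in Δmed15, and the samples of the strains overlap. The level depended on the background treatment. After normexp background correction the Δhrp1 medians were −0.04, 0.41 and 0.20, and after loess within arrays −0.37, 0.28 and 0.41. Those of Δmed15 were 0.43 and −0.40 after normexp, and 0.41 and −0.45 after loess.

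Among single features, Tf2-2 had ratios of 0.51, 0.63 and 0.61 in Δhrp1, against 0.29 and −0.61 in Δmed15. Its Δhrp1 samples were all above its Δmed15 samples, at 1 of the 9 features, where 8.37% of all ORF features lay apart in this direction and 6.26% in the other. Tf2-1, whose coding sequence is identical, had −0.42, 0.42 and 0.71 in Δhrp1, against 0.75 and −0.46 in Δmed15, and the strains overlap. Tf2-5 had 1.30, 0.43 and −0.20 in Δhrp1, against 0.31 and 0.08 in Δmed15. In Δhrp1 replicate 2 both of its ChIP spots and 1 input spot were saturated, and in replicate 1 so was 1 input spot. The values 0.43 and 1.30 are thus affected by the scanner ceiling. At SPAC19D5.09c in Δhrp1 replicate 2, both spots were saturated in both channels, so its ratio of 0.35 reflects only the array centring. With saturated spots left out, the fitted Δhrp1 median over the Tf2 ORF features was 0.36. Tf2-11, the copy with bases of its own, had 0.39, 0.57 and 0.11 in Δhrp1, against 0.40 and −0.50 in Δmed15.

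In the limma fit with strain and dye, all 9 ORF features had an estimate above 0 in Δhrp1, from 0.17 at Tf2-7 to 0.65 ± 0.25 at Tf2-2 (SE), with a median of 0.36. The median over all ORF features was 0.02. Without Δhrp1 replicate 2 the Tf2 median was 0.22, and without Δhrp1 replicate 3, the Cy5 sample, it was 0.93. In the latter fit the dye effect was taken from Δmed15 alone. None of the 9 passed (limma, Benjamini-Hochberg over all features, adjusted p = 0.355 to 0.811), and 0.0% of all ORF features did. At an unadjusted p under 0.05 the fit held 1 of the 9, Tf2-2, beside 14.0% of all ORF features. In Δmed15 the estimates ran from −0.23 to 0.19 with a median of −0.05, 4 of 9 above 0. That median was −0.69 without Δmed15 replicate 1 and 0.42 without Δmed15 replicate 2, so its sign depended on the sample. Both fits took the dye effect from Δhrp1 alone. None was called there, and none had an unadjusted p under 0.05, beside 0.0% and 5.88% of all features. Because the copies cross-hybridise, the 9 estimates above 0 in Δhrp1 are repeated readings of shared sequence and not 9 separate results.

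**Figure D2:**
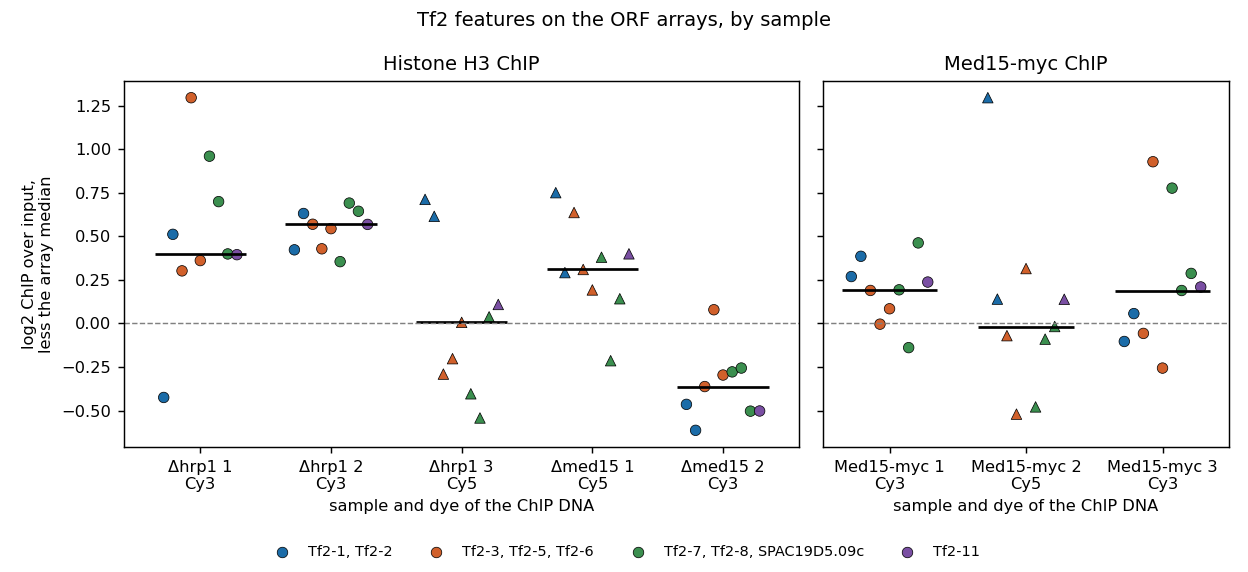
Log2 ChIP over input less the array median (vertical axis) of the 9 Tf2 ORF features in each sample (horizontal axis), coloured by identical coding sequence, with circles where the ChIP DNA was in Cy3, triangles where it was in Cy5, and a line at the median of the 9. The medians of the Δhrp1 samples are 0.40, 0.57 and 0.01, those of the Δmed15 samples 0.31 and −0.36, and those of the Med15-myc samples 0.19, −0.02 and 0.19.

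Set directly against each other, the deletions differed by a fitted median of 0.35 (Δhrp1 minus Δmed15), with single features from 0.06 at Tf2-3 to 0.82 ± 0.39 at Tf2-2. None of the 9 was called (limma, adjusted p = 0.999), none had an unadjusted p under 0.05, and over all ORF features these shares were 0.0% and 1.27%. The difference depended on the dye. With the ChIP DNA in Cy3, the median ratio was 0.52 in Δhrp1 (mean of 2 samples) and −0.36 in Δmed15 (1 sample), and the difference was positive at 9 of 9 features with a median of 0.94. In Cy5, the median ratio was 0.01 in Δhrp1 and 0.31 in Δmed15 (1 sample each), and the difference was negative at 8 of 9 features with a median of −0.29. After normexp background correction these medians were 0.64 and −0.09, and after loess within arrays 0.52 and 0.01. The fitted difference therefore averages over dye orientations that do not point the same way. The part of background in it was not tested.

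Against wildtype, only the deposited H3 values could be used. In the deletion samples they hold the ChIP channel alone, on a log2 scale, without division by input. For wildtype, with no scanner readings at hand, the same make-up is inferred and was not checked. The values are called H3 signal here and are not occupancy. In wildtype the ChIP DNA was always labelled with Cy3, so the effect of the dye comes from Δhrp1 and Δmed15 alone. SPAC19D5.09c has no value in the deposited table, which leaves 8 ORF features. Both comparisons share the wildtype samples.

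In Δhrp1, 4 of the 8 features passed against wildtype, 3 higher and 1 lower. Over all ORF features 27.6% passed, 13.7% higher and 14.0% lower, so calls are common in this comparison. At an unadjusted p under 0.05 the fit held 5 of the 8, beside 42.5% of all. The median difference was 0.88 over the 8 features and 0.03 over all features. In Δmed15, 1 of 8 passed, and it was lower, beside 5.34% of all features (3.0% higher and 2.35% lower), with a median of −0.08 over the 8 and −0.02 over all. At an unadjusted p under 0.05 it held 2 of the 8, beside 25.1% of all. All Δhrp1 samples lay above both wildtype samples at 5 of the 8 features and below them at 1, where 31.5% and 29.0% of all ORF features did so. All Δmed15 samples lay above both wildtype samples at 4 of the 8 and below them at 4, where 35.3% and 36.1% of all did so.

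Tf2-11 had an H3 signal of 2.21, 1.99 and 2.01 in Δhrp1, 0.72 and 0.56 in Δmed15, and −0.04 and 0.45 in wildtype. The 3 strains do not overlap, with Δhrp1 highest and wildtype lowest, an order seen at 2 of the 8 features and at 6.25% of all ORF features. The fit gave 1.86 ± 0.37 for Δhrp1 minus wildtype (limma, adjusted p = 0.0122) and 0.43 ± 0.43 for Δmed15 minus wildtype (adjusted p = 0.557).

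Tf2-8 had 2.05, 2.40 and 2.38 in Δhrp1, 1.10 and 0.93 in Δmed15, and 0.56 and 0.80 in wildtype. This is the other feature with that order. The difference from wildtype was 1.55 ± 0.36 in Δhrp1 (limma, adjusted p = 0.0190) and 0.26 ± 0.41 in Δmed15 (adjusted p = 0.726). Tf2-7, its neighbour on chromosome I with the same coding sequence, had 1.64, 1.84 and 2.23 in Δhrp1, 0.95 and 0.97 in Δmed15, and 0.98 and 1.51 in wildtype. Its differences were 0.57 ± 0.38 in Δhrp1 and −0.42 ± 0.44 in Δmed15, and neither passed.

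Tf2-2 had 2.21, 1.97 and 1.11 in Δhrp1, 1.27 and 0.72 in Δmed15, and 0.01 and 0.62 in wildtype. Every deletion sample was above both wildtype samples. The difference was 1.55 ± 0.47 in Δhrp1 (limma, adjusted p = 0.0420) and 0.84 ± 0.54 in Δmed15 (adjusted p = 0.368). Tf2-1 had −0.87, 0.13 and 0.06 in Δhrp1, −1.29 and −1.12 in Δmed15, and 1.02 and 1.51 in wildtype. Every deletion sample was below both wildtype samples, the opposite of Tf2-2. The difference was −1.56 ± 0.45 in Δhrp1 (limma, adjusted p = 0.0362) and −2.56 ± 0.51 in Δmed15 (adjusted p = 0.0346).

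The Tf2-3, Tf2-5 and Tf2-6 features, which stand for copies with the same coding sequence, did not pass in either deletion in the fit with strain and dye. Tf2-3 had 1.97, 1.79 and 1.52 in Δhrp1, 0.03 and 0.05 in Δmed15, and 1.40 and 1.79 in wildtype. Its Δmed15 samples lie below all others, with a difference from wildtype of −1.45 ± 0.42 (limma, adjusted p = 0.0827). Tf2-5 differed from wildtype by 1.20 ± 0.45 in Δhrp1 (adjusted p = 0.0797) and by 0.74 ± 0.52 in Δmed15. Both of its ChIP spots in Δhrp1 replicate 2 were saturated, so that signal is capped by the scanner ceiling. Tf2-6 differed by −0.20 ± 0.35 in Δhrp1 and by −0.85 ± 0.40 in Δmed15. Without the dye term, Tf2-5 passed in Δhrp1 (1.23, limma, adjusted p = 0.0443) and Tf2-3 in Δmed15 (−1.55, adjusted p = 0.0281).

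**Figure D3:**
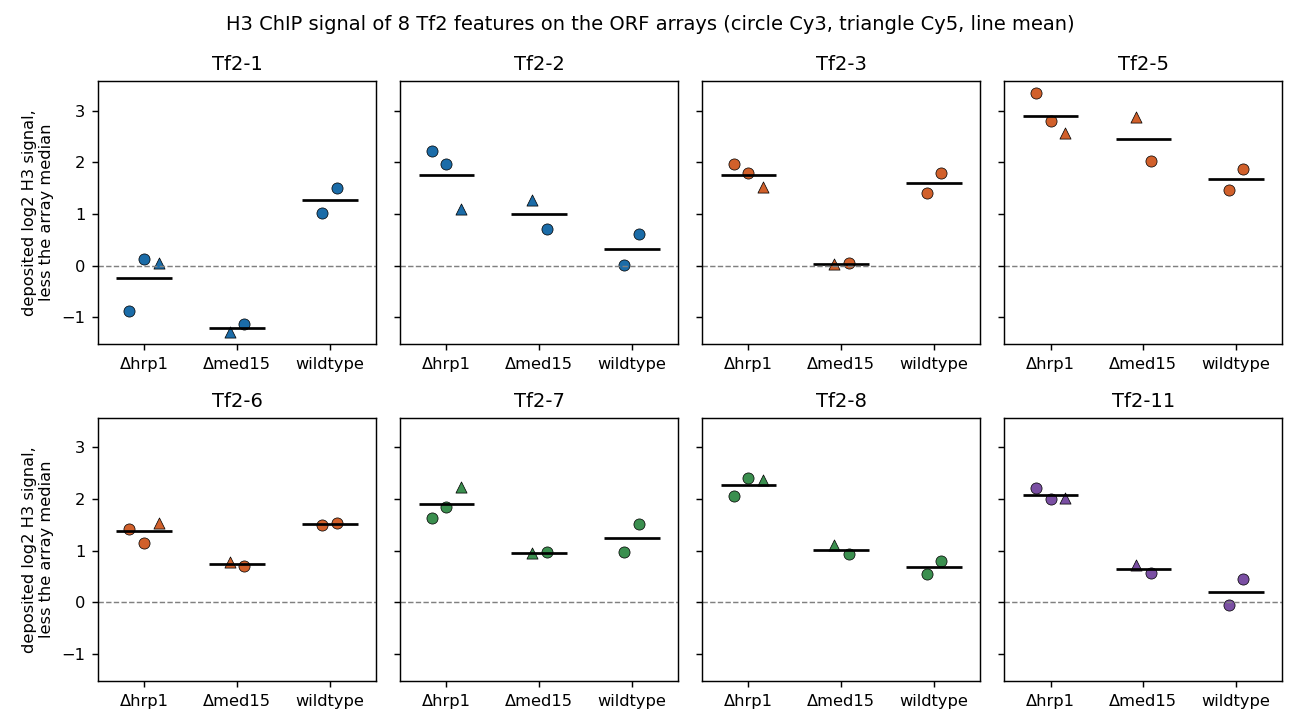
Deposited log2 H3 signal less the array median (vertical axis) of each of the 8 Tf2 ORF features in Δhrp1, Δmed15 and wildtype samples, circles for Cy3, triangles for Cy5, lines at the strain means. Every deletion sample lies below both wildtype samples (1.02 and 1.51) at Tf2-1, and above both at Tf2-2, Tf2-5, Tf2-8 and Tf2-11.

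Leaving out a wildtype replicate leaves 1 wildtype sample, which is then taken to vary like the other strains. In those fits none of the 8 features passed in Δhrp1, and 1.05% (without replicate 1) or 0.0628% (without replicate 2) of all features did. The Δhrp1 differences themselves were then 1.62 and 2.11 at Tf2-11, 1.43 and 1.67 at Tf2-8, 1.25 and 1.86 at Tf2-2, and −1.80 and −1.31 at Tf2-1. The count was 2 without Δhrp1 replicate 1 (28.8% of all features) and 2 without Δhrp1 replicate 2 (18.9%). The Tf2-1 call in Δmed15 was lost without either wildtype replicate, without either Δmed15 replicate and without Δhrp1 replicate 3, with differences from −2.98 to −2.31. All fitted differences of the called features kept their sign in these fits.

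**Figure D4:**
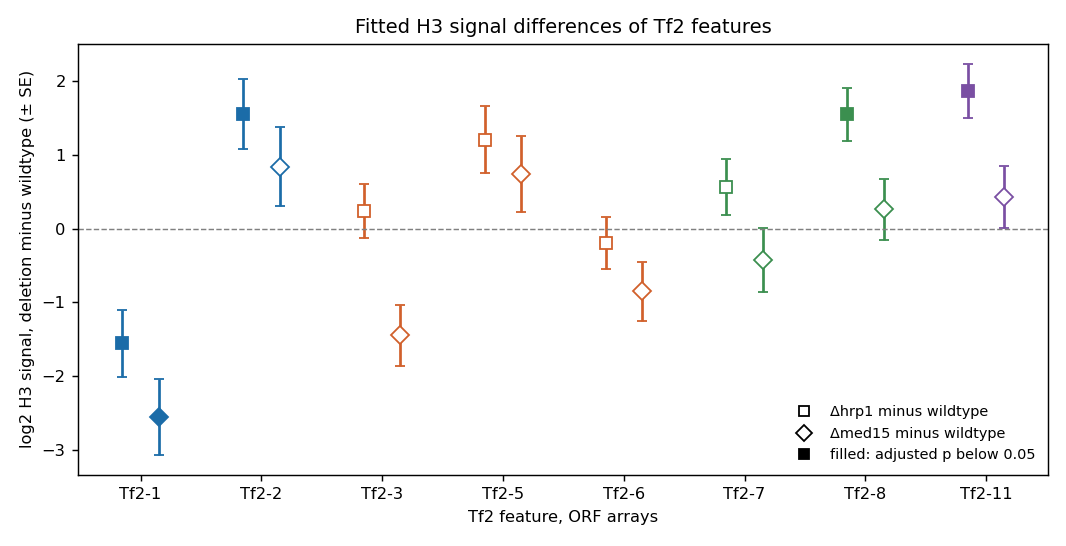
Fitted difference in log2 H3 signal from wildtype (vertical axis, ± SE) for the 8 Tf2 ORF features (horizontal axis), squares for Δhrp1 and diamonds for Δmed15, filled where the adjusted p is under 0.05, coloured by identical coding sequence. Tf2-1 lies at −1.56 and −2.56, and Tf2-2, with the same sequence, at 1.55 and 0.84.

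Features of identical coding sequence give a check within the family. Levels of different spotted features are not comparable, so what is read is how the gap between them changes from array to array. Among the 5 such pairs with H3 signal, the differences from wildtype had opposite signs in 3 pairs in Δhrp1 and in 4 pairs in Δmed15, and they were up to 3.11 apart in Δhrp1 and 3.40 in Δmed15. In the ratios of ChIP over input, the members of the 7 pairs differed by at most 0.26 in Δhrp1 and 0.30 in Δmed15, with opposite signs in 0 pairs in Δhrp1 and in 5 pairs in Δmed15, where the values lay near 0. These ratios are strain levels and not differences between strains. For Δhrp1 minus Δmed15 over input, the members of a pair were up to 0.57 apart. Tf2-12, not among the copies followed here, has the coding sequence of Tf2-3, Tf2-5 and Tf2-6 and is in none of these pairs. Its fitted ratio in Δhrp1 was 1.24 ± 0.24, against 0.20 at Tf2-3, 0.42 at Tf2-5 and 0.30 at Tf2-6. The Δhrp1 samples of Tf2-12 read 0.08, 0.40 and 2.32. In the last of them its duplicate spots differed by 2.24 log2. Their input intensities were 1462.5 and 252 units, where the array median input was 3426. Ratios at identical sequence lay further apart here than in the 7 pairs, but this rests largely on that sample. The gap between Tf2-2 and Tf2-1 on the same array (Tf2-2 minus Tf2-1, log2 H3 signal) was 3.08, 1.85 and 1.05 in Δhrp1, 2.56 and 1.83 in Δmed15, and −1.01 and −0.89 in wildtype. In the Med15-myc strain, with anti-myc in place of anti-H3, it was 2.42, 1.17 and 1.35. The gap was thus positive on the 8 arrays of the other strains and negative on both wildtype arrays. In the input channel of those 8 arrays the gap was 1.07 to 3.13, also positive on each. In the ratios it was −1.16 to 0.94. The wildtype input was not analysed here, so whether its input gap is also negative was not tested.

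Between the deletions, all Δhrp1 samples were higher in H3 signal than all Δmed15 samples at 6 of 8 features (Tf2-1, Tf2-3, Tf2-6, Tf2-7, Tf2-8 and Tf2-11) and lower at none. Over all ORF features measured, 22.9% lay apart in the higher direction and 20.9% in the lower. The family median of the signal was 1.90 ± 0.12 in Δhrp1 (SD, n = 3) and 0.79 ± 0.11 in Δmed15 (SD, n = 2). Within dye, Δhrp1 was higher at 8 of 8 features in Cy3 (median difference 1.17) and at 6 of 8 in Cy5 (median difference 1.28). The Cy5 comparison was 1 sample against 1, and the shares of all features with these signs were not computed. The median signal difference over the ORF features thus had the same sign in both dyes, while that of the ratio over input did not. At the intergenic Tf2-1 feature, described next, the signal difference was 1.69 in Cy3 and −0.81 in Cy5.

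The single intergenic feature, named for Tf2-1, had an H3 signal of 3.16, 1.44 and 0.24 in Δhrp1, 1.05 and 0.61 in Δmed15, and −1.64 and −1.19 in wildtype. All deletion samples were above both wildtype samples, which 23.6% of all IGR features showed for Δhrp1 (25.3% the reverse) and 33.6% for Δmed15 (37.2% the reverse). The difference was 3.35 ± 0.76 in Δhrp1 (limma, adjusted p = 0.0264), where 12.5% of all IGR features passed, 4.06% higher and 8.44% lower, and 32.1% had an unadjusted p under 0.05. In Δmed15 it was 2.74 ± 0.87 (adjusted p = 0.138, unadjusted p = 0.0102), where 0.225% of IGR features passed, 0.041% higher and 0.184% lower, and 19.0% had an unadjusted p under 0.05. With 1 wildtype sample left, the Δhrp1 difference was 3.13 without wildtype replicate 1 (adjusted p = 0.184) and 3.58 without wildtype replicate 2 (adjusted p = 0.185), in fits that called 0.0411% and 0.0410% of all IGR features. In Δmed15 the difference passed when Δhrp1 replicate 1 was left out, at 2.43 (adjusted p = 0.0198), in a fit that called 12.3% of all IGR features. It was 2.02 without Δmed15 replicate 1 and 4.52 without Δmed15 replicate 2. The latter fit compares a Cy5 sample with Cy3 wildtype samples through a dye effect taken from Δhrp1 alone.

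Relative to input, the same feature had 1.61, 0.23 and −0.67 in Δhrp1, against −0.96 and −0.87 in Δmed15. Its Δhrp1 samples span both sides of the array median, and its Δmed15 samples lie below it. The fit gave 0.23 ± 0.53 in Δhrp1, −0.92 ± 0.63 in Δmed15 and 1.15 ± 0.83 for Δhrp1 minus Δmed15. The Δmed15 value was −1.66 without Δmed15 replicate 1 and −0.17 without Δmed15 replicate 2. In both fits the dye effect was taken from Δhrp1 alone, and the Δmed15 samples themselves read −0.96 and −0.87. The Δhrp1 value was −0.22 without Δhrp1 replicate 1 and 0.87 without Δhrp1 replicate 3. The difference was 0.30 without Δmed15 replicate 2 and 1.78 without Δmed15 replicate 1, which are the differences in Cy5 alone and in Cy3 alone. None passed (limma, adjusted p of 0.909 or more), none had an unadjusted p under 0.05, and 0.0% of all IGR features passed in each of these comparisons. At an unadjusted p under 0.05 the shares of all IGR features were 9.07%, 2.46% and 0.282%. After loess the Δmed15 value was −0.95 ± 0.21 (adjusted p = 0.00153), in a fit that called 23.9% of all IGR features. The Δhrp1 value was −0.32 after loess and −0.29 after normexp, below the array median. The higher H3 signal of this feature in Δmed15 and its low ratio over input are therefore opposite in direction, in measures with different baselines.

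**Figure D5:**
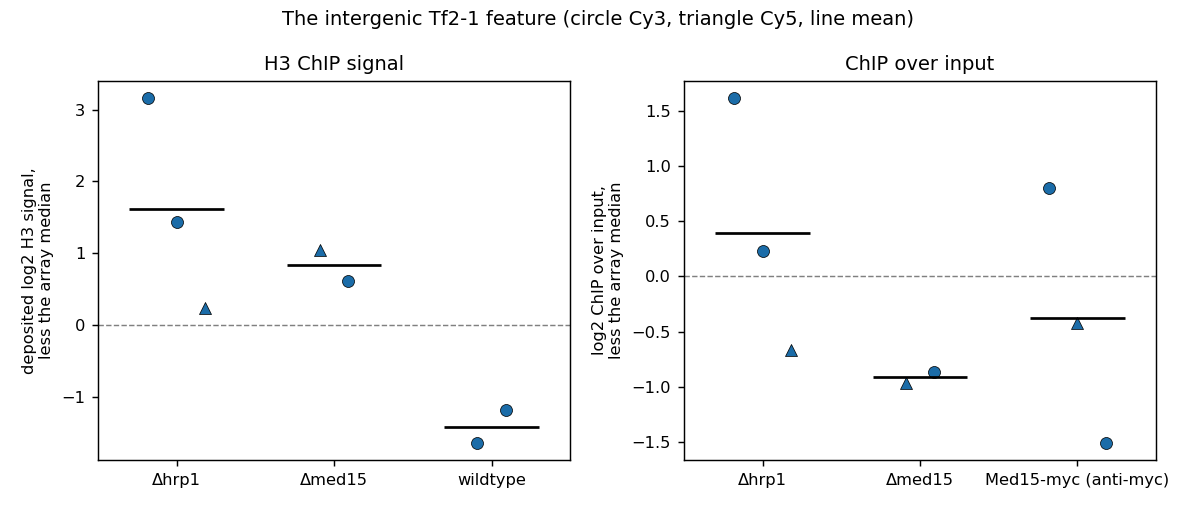
The intergenic Tf2-1 feature by sample, with log2 H3 signal less the array median in Δhrp1, Δmed15 and wildtype on the left and log2 ChIP over input less the array median in Δhrp1, Δmed15 and Med15-myc on the right (circles Cy3, triangles Cy5, lines strain means). Wildtype signals of −1.64 and −1.19 lie below all deletion samples, and the Δmed15 ratios of −0.96 and −0.87 lie below the array median.

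Over the Tf2 copies Med15-myc did not pass the test on the ORF arrays. The median ratio of ChIP over input over the 9 ORF features was 0.19, −0.02 and 0.19 in the 3 samples (mean 0.12 ± 0.12, SD, n = 3). Fitted values ran from −0.01 at Tf2-7 to 0.49 ± 0.36 at Tf2-1, with a median of 0.16, against 0.02 over all ORF features. None of the 9 passed (limma, adjusted p = 0.998), none had an unadjusted p under 0.05, and over all ORF features these shares were 0.0% and 1.62%. The sample values depended on the background treatment. After normexp the medians of replicates 1, 2 and 3 were −0.02, 0.80 and −0.11 (SD 0.50), and after loess they were 0.08, 0.55 and −0.30 (SD 0.43). In replicate 2, the Cy5 sample, all 9 features were above 0 in both. The fitted median was 0.21 after normexp and 0.15 after loess, and none of the 9 was called in either. The Tf2-1 value came largely from 1 sample, with ratios of 0.27, 1.30 and −0.10.

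At the intergenic Tf2-1 feature, the Med15-myc ratio was 0.80, −0.42 and −1.51, on both sides of the array median, and the fit gave −0.38 ± 0.60 (limma, adjusted p = 0.999). Of all IGR features 0.0% passed, and 0.706% had an unadjusted p under 0.05. In replicate 3 the duplicate spots of this feature differed by 3.84 log2, and 1 of them, with a ChIP intensity of 114 scanner units beside 6729 in its duplicate, was flagged in the scanner file. Without flagged spots the fitted value was 0.22 ± 0.30. With all spots kept it was 0.17 ± 0.35 after normexp and 0.14 ± 0.17 after loess, so its sign is not settled.

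Other Tf2 features on the ORF arrays are Tf2-10, Tf2-12, SPBC1E8.04c and SPCC1494.11c (which the annotation assigns to Tf2-13). SPBC1E8.04c was read here as Tf2-10, whose annotated identifier is SPBC1E8.04, without the final c. None was called in any comparison (limma). Unadjusted p was under 0.05 at 1 of the 4 in Δhrp1 over input (14.0% of all ORF features) and in Δhrp1 minus Δmed15 (1.27%). In both it was Tf2-12, whose duplicate spots in Δhrp1 replicate 3 lay far apart. In H3 signal against wildtype it was SPBC1E8.04c, in Δhrp1 (42.5% of all) and in Δmed15 (25.1%). None was under 0.05 in Δmed15 over input (5.88%) or for Med15-myc (1.62%). In H3 signal the 4 features differed from wildtype by 0.22 to 1.25 in Δhrp1 and by −0.32 to 1.39 in Δmed15. The medians over the 4 were 0.35 in Δhrp1 and −0.19 in Δmed15. Over input, their fitted values ran from 0.19 to 1.24 in Δhrp1, highest at Tf2-12, and from −0.20 to 0.22 in Δmed15. The medians of these were 0.32 and 0.08.

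The per-sample family median of the ratio over the 8 arrays with input (5 for H3 and 3 for Med15-myc) was set against every other ORF feature. These arrays share dye and background differences as well as strains, so the correlations are descriptions. The most similar feature was SPCC1494.11c (Pearson r = 0.96, 8 samples), itself a Tf2 copy. It was followed by SPAC977.13c (0.91), *tom70*, a receptor for mitochondrial protein import (0.90), *mac1* (0.90) and SPBC17A3.05c (0.90). Of the other Tf2 features, Tf2-10 had r = 0.72, SPBC1E8.04c 0.68 and Tf2-12 0.01. Among the members, each against the median of the rest, r was 0.92 for Tf2-11, 0.88 for Tf2-8 and 0.84 for Tf2-3, but 0.43 for Tf2-5 and −0.04 for Tf2-1. For the intergenic Tf2-1 feature the most similar IGR features were those of *pho4*, an acid phosphatase gene (0.98), *pab2*, a nuclear poly(A)-binding protein gene (0.95), *cdm1*, a DNA polymerase delta subunit (0.95), *pof11*, an F-box protein gene (0.94) and SPAPB1E7.11c (0.92).

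Genes that act on Tf elements in fission yeast were read as a list of 20, of which 17 have an IGR feature and 20 an ORF feature. In the H3 signal of Δhrp1 against wildtype, 5 of 20 ORF features were lower and none higher, beside 14.0% lower and 13.7% higher of all features, with a list median of −0.60 against 0.03 over all features. At an unadjusted p under 0.05 there were 7 of 20, beside 42.5% of all. Of the 5, 1 is *hrp1*, absent from that strain. The others were *pcr1*, a bZIP transcription factor of the Atf1 heterodimer (−2.40 ± 0.56), *fft2*, a Fun30-type remodeller (−2.50 ± 0.69), *clr3*, a histone deacetylase (−1.48 ± 0.36), and *asf1*, a histone chaperone (−1.40 ± 0.38), with adjusted p from 0.0193 to 0.0322 for these 4 in limma. On the IGR arrays, the features of *sre1* (−2.20 ± 0.61) and *cbh2*, a CENP-B homologue (−1.92 ± 0.54), were lower, and that of *clr6*, a histone deacetylase (2.41 ± 0.69), was higher, 2 and 1 of 17, beside 8.44% lower and 4.06% higher of all IGR features. At an unadjusted p under 0.05 there were 9 of 17, beside 32.1% of all. In Δmed15 against wildtype, and in every ratio over input, none of the list was called by limma. In Δmed15 against wildtype the list had 3 of 20 ORF features (25.1% of all) and 5 of 17 IGR features (19.0% of all) at an unadjusted p under 0.05. In the ratios it had 2 of 17 IGR features in Δhrp1 (9.07% of all) and none elsewhere.

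The *wtf* genes, spore killer genes that often lie beside Tf LTRs and are themselves repeated, gave a comparison with another multicopy family. Of their 21 features on each array type, 18 had an H3 signal. In Δhrp1 against wildtype, 2 of the 18 ORF features were higher and 2 lower, beside 13.7% and 14.0% of all, with a median of 0.23. Of the 18 IGR features, 2 were higher and none lower, beside 4.06% and 8.44% of all, with a median of 0.97. In Δmed15 against wildtype none was called (limma), with 8 of 18 ORF and 4 of 18 IGR features at an unadjusted p under 0.05, beside 25.1% and 19.0% of all. In the ratios over input none was called, and none had an unadjusted p under 0.05. The *wtf* ORF medians over input were 0.18 in Δhrp1, 0.14 in Δmed15 and −0.24 in Med15-myc.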

How the data were processed

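The scanner tables give, per the file headers, a median intensity for every spot and for its local background in each dye, uncorrected. The deposited value table holds log2 values; set against the scanner tables (r of 0.991 or more), these are the ChIP channel less background over a constant, with a floor. Wildtype make-up is inferred from the table's form.

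Computed here: log2 of ChIP over input intensity as scanned (floor of 1 unit), duplicate spots averaged, controls left out, and the median of each array subtracted. Fits used lmFit and eBayes of limma 3.58.1 (R 4.3.3), with strain and ChIP dye as terms for 5 H3 ratio samples and 7 H3 signal samples (floor values missing), and a mean for 3 Med15-myc samples. P-values are two-sided, Benjamini-Hochberg adjusted over all features of an array type, threshold 0.05; errors after ± are SE unless marked SD. The fits were tested on simulated data. Members and lists were chosen with earlier results of these data known. Every member is named; the features most like the family are the 5 with the highest correlation per array type. Replicate numbers were not taken as pairs: same-numbered samples' deviations correlated with r of 0.02 to 0.33 in the signal (0.12 to 0.19 on the IGR arrays) and −0.64 to 0.48 in the ratios. The 6 RNA samples were not used, since no table here names their probe sets.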

Additional observations from a re-analysis of the deposited data

Results flagged for a closer look

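At Tf2-7 on the ORF arrays, every Δhrp1 sample lay above the wildtype mean in H3 signal, by 0.66 on average (log2), and every Δmed15 sample lay below it, by −0.29 on average. The wildtype samples were 0.98 and 1.51, and the Δmed15 samples, 0.95 and 0.97, lay close to the lower of them. Neither difference from wildtype passed (limma, adjusted p = 0.290 in Δhrp1 and 0.573 in Δmed15). The share of all ORF features with this pattern was not computed. At 22.9% of them all Δhrp1 samples lay above all Δmed15 samples. The difference between the deletions was not tested in the H3 signal. Its coding sequence is that of Tf2-8, at which the samples of both deletions lay above wildtype.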

How the results depend on the processing

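Alternatives were normexp, loess, no dye term, Cy3 samples only, scaling of the arrays, separate centring of the spot tables, floor values kept, dim or saturated spots left out, the deposited values for Med15-myc, a replicate block and leaving out each replicate; leaving out flagged spots was chosen after seeing the data. No called value changed sign in them. Fits that leave 1 sample of a strain take that sample to vary like the others. Over input, the count of Tf2 features called stayed at 0 in these settings except for the Δmed15 IGR feature after loess (1; 23.9% of all IGR features called) and Med15-myc on the ORF arrays with deposited values in place of the ratio (7 of 8; 33.9% of all), which lack input. In H3 signal against wildtype, the Δhrp1 ORF count of 4 was 0 to 5 when leaving out 1 sample, and 0 without either wildtype replicate; the Δmed15 ORF count of 1 was 0 with Cy3 samples only, 2 without the dye term (13.8% of all) and 0 to 2 when leaving out 1 sample. The Δhrp1 IGR count of 1 was 0 to 1, 0 without either wildtype replicate; the Δmed15 IGR count of 0 was 1 with arrays scaled to one spread (8.12% of all) and 0 to 1 when leaving out 1 sample. With the replicate number as a block, the counts in H3 signal were 5 (Δhrp1, 34.1% of all features called) and 1 (Δmed15, 3.81%) on the ORF arrays and 1 (Δhrp1, 21.4%) and 0 (Δmed15, 2.15%) on the IGR arrays, and 0 in the ratios. The strains share only 2 numbers, and nothing in the labels pairs them. The fitted ORF median of Δhrp1 minus Δmed15 over input ran from −0.29 (without Δmed15 replicate 2) to 0.94 (without Δmed15 replicate 1, or without Δhrp1 replicate 3). These ends are the differences in Cy5 alone and in Cy3 alone, since each of these fits leaves a strain with samples in a single dye. Why the dyes differ, and the cause of the other shifts, was not tested. Signal over background limits the Cy5 channel most, with backgrounds up to 6526 units.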
